A study of Homo sapiens with 16 samples.

Results

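A group of 47 autosomal genes had clear transcript levels in the human melanoma line MeWo and almost none in the human melanoma line A101D. They were chosen by the measured values themselves. A gene entered when its mean over the 8 MeWo libraries was 5 CPM or more (CPM is the count divided by the library total, times 1e6) and its mean over the 8 A101D libraries was under 0.5% of that. MTAP, CDKN2A and CDKN2B, and symbols starting with HOX, COL, MAGE or CDH, were left out by name, which removed 3 genes. The 47 are among 60676 genes in the tables, and make up 0.448% of the 10489 autosomal genes that reached 5 CPM in MeWo. The same rule with the lines exchanged and the same names left out gave 159 genes.

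The study profiled total RNA of 16 samples, 8 per line, to follow what happens when homocysteine replaces methionine in the culture medium. A101D is labelled methionine dependent and MeWo methionine independent, which means that MeWo grows when homocysteine is given in place of methionine. Both lines were grown in a glucose-rich medium with dialyzed serum, glutamine, pyruvate, antibiotics and cystine, to which either methionine or homocysteine was added. No label says which culture received which, and none says whether the replicates were separate cultures, so p-values here measure only the spread between these samples, which may be technical. Each line is a single cell line, so a difference between them belongs to these lines and cannot be assigned to methionine dependence.

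The 16 libraries held 28910881 to 38961862 counts. All 6 markers checked for the melanocyte lineage (MITF, MLANA, TYR, PMEL, SOX10 and S100B) were at 1 CPM or more in both lines. Their summed levels were 1324 to 1514 CPM for A101D libraries and 7782 to 8489 CPM for MeWo libraries. TYR was close to that floor in A101D, at 1.53 CPM beside 297 CPM in MeWo. PMEL, at a mean of 6609 CPM, made up most of the MeWo sum. In A101D 6 fibroblast markers summed to 638 to 1033 CPM, against 76.9 to 90.5 CPM for MeWo, with DCN among the 3 at 1 CPM or more in MeWo. Keratinocyte markers summed to 33.1 to 44.8 CPM (A101D) and 19.7 to 25.4 CPM (MeWo), with KRT1 at 0 in A101D. Blood markers stayed at 3.89 CPM or less in all libraries, with HBB at 0 in both lines. The part of these markers in the results below was not tested.

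As background, melanocytes make pigment in melanosomes, where tyrosinase (TYR) starts melanin synthesis and DCT and TYRP1 carry out later steps of the brown-black pathway. MITF, the lineage's transcription factor, binds a short element known as the M-box in the promoters of these enzymes. KIT, the receptor for stem cell factor, is needed for the survival and migration of pigment cell precursors. Many genes start in CpG-rich promoters, whose cytosines can be methylated, and the series as a whole addressed methylation.

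RefSeq promoter windows (GRCh38.p14, 250 bases before to 50 after each start site) were matched by symbol for 30 of the 47 genes. Parts of 4 are shown for CpG-poor and CpG-rich members: TYRP1, the most abundant member; MGMT, whose level varied least over the MeWo libraries; IRX2, which had no count in A101D and shares its upstream region with a second member; and LINC01537, which changed most between the MeWo replicate sets. Capitals mark the M-box letters TCATGTG in TYRP1 and every CpG in the other 3. They are chr9:12693135-12693384 (plus strand), chr10:129466991-129467183 (plus strand), chr5:2751678-2751927 (minus strand) and chr11:72570406-72570655 (plus strand).
TYRP1: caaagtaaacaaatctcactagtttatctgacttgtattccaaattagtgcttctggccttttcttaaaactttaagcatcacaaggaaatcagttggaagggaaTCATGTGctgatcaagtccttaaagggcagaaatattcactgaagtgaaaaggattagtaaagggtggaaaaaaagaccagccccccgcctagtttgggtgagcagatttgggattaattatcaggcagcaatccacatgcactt
MGMT: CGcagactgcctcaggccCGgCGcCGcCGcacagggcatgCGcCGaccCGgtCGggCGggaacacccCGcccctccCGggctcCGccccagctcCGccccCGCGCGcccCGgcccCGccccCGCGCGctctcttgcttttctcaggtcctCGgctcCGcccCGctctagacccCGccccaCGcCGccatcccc
IRX2: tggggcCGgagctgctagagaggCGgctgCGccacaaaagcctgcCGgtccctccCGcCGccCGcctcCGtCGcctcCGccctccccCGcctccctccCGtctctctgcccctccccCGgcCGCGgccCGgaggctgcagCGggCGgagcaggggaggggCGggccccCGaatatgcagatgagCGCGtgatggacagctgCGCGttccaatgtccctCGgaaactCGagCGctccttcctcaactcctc
LINC01537: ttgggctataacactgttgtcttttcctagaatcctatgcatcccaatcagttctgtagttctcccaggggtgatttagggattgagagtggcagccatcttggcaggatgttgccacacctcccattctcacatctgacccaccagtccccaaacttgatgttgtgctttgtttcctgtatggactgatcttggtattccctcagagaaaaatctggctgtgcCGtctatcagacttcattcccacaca

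The TYRP1 stretch begins 250 bases before a RefSeq start that lies 7946 bases inside the longer gene span of GENCODE v29, and 76 of its bases are an exon of a GENCODE transcript there. The other 3 stretches overlap no GENCODE exon, and the MGMT stretch was ended where the GENCODE gene begins. TCATGTG starts 145 bases before the TYRP1 start site. Searched on both strands, this motif was found in the 250 bases before the start in 2.52% of all 35116 windows. Among the members it was found in 2, TYRP1 (its 1 window) and MME (1 of 4 windows). The share is per window and the members are counted as genes, so they were not compared. Whether any factor bound there was not measured.

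CpG number separated the members widely. In the whole window of 300 bases, TAFA5 held 67 CpG, ADRA2C 51, MGMT 45, KIT and OLFM1 38 each, and IRX2 and IRX2-DT 34 each, whereas LINC01537 held 1 and TYRP1, BCHE and LINC00488 held 2 each. For genes with several windows the one with most CpG was used. The median of the 30 members was 24 CpG, against 16 over all 27305 genes of the table and 29 over the 8495 autosomal genes with a window that reached 5 CPM in MeWo. Of the members, 73.3% held 10 CpG or more, against 58.5% of all genes and 95.7% of those expressed genes, and 8 members held fewer. The 300-base windows of IRX2 and IRX2-DT overlap by 285 bases on opposite strands. No methylation value enters here.

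**Figure D1:**
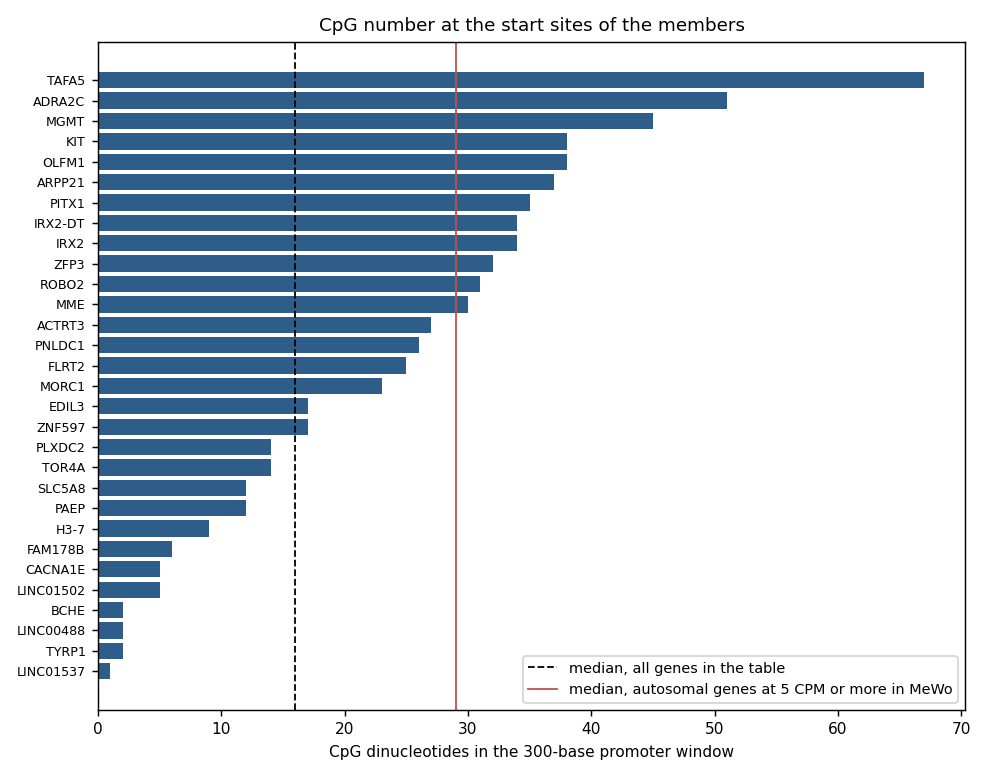
Bars show the number of CpG dinucleotides in the 300-base promoter window of each of 30 members (x axis, count). The dashed line is the median of all genes in the RefSeq table (16) and the solid line that of autosomal genes at 5 CPM or more in MeWo (29); bars run from 1 (LINC01537) to 67 (TAFA5).

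In A101D these genes were close to absent rather than uniformly silent. Over 8 A101D libraries 5 members had no count at all (LINC01502, ROBO2, IRX2, MORC1 and IRX2-DT), 24 had 1 to under 10 counts and 18 had 10 or more, with a median of 7. All 47 together gave 4.70 to 7.43 CPM per A101D library and 5093 to 5737 CPM per MeWo library, where they took 0.509% to 0.574% of all counts. In these bulk samples fewer expressing cells and less RNA per cell cannot be told apart. The line difference chose the genes and was not tested.

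**Figure D2:**
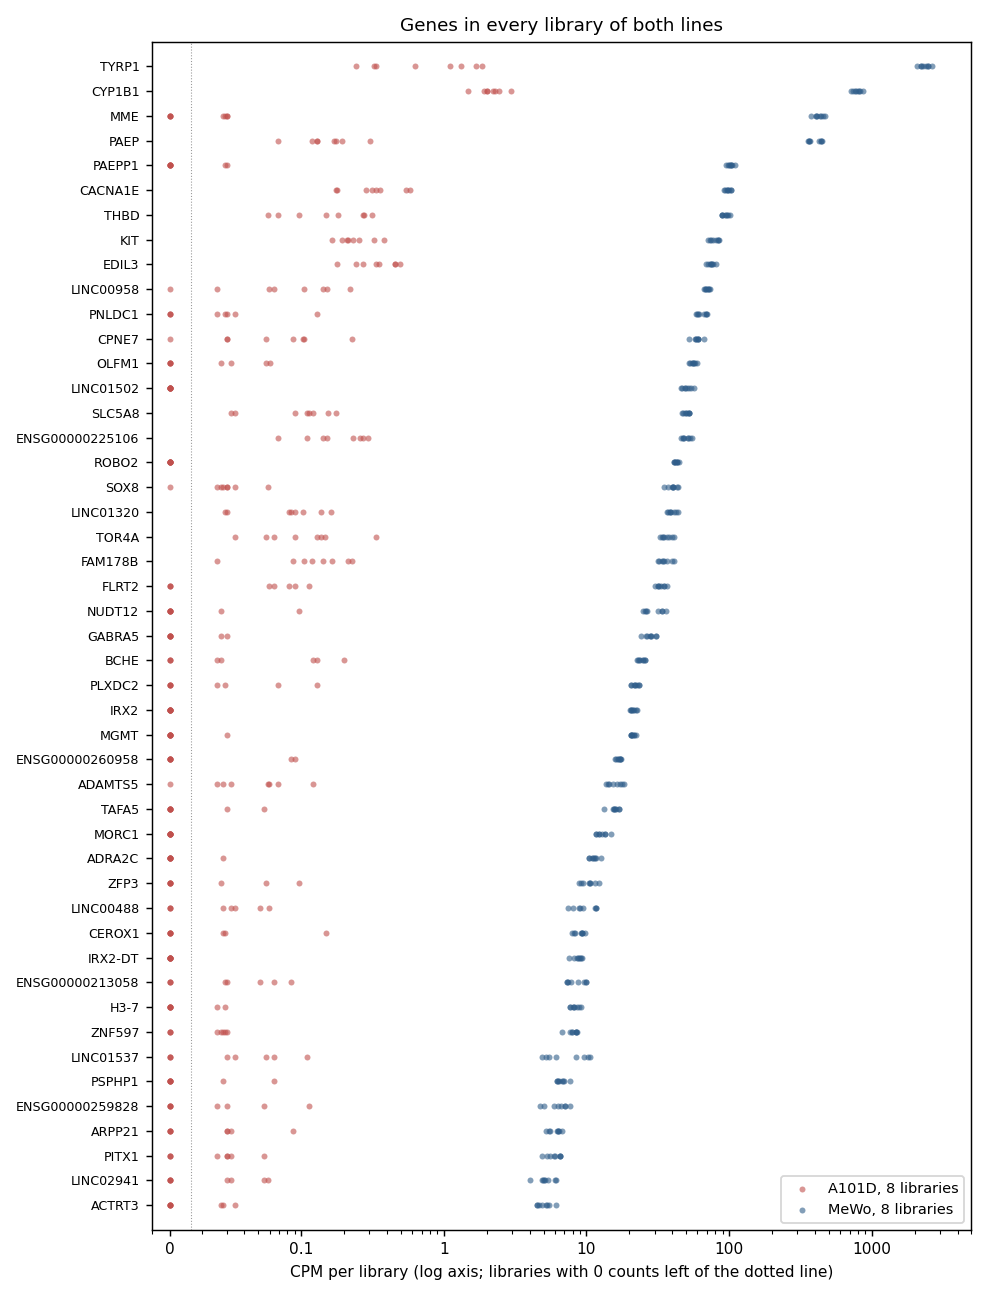
CPM of each member (y axis, ordered by mean level in MeWo) in each of 8 A101D and 8 MeWo libraries (x axis, CPM, log scale, with libraries at 0 counts to the left of the dotted line). Every MeWo point lies above every A101D point of the same gene.

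In MeWo the levels ran from TYRP1 at 2351 CPM to ACTRT3 at 5.08 CPM, with a median of 27.8 CPM. There were 5 members at 100 CPM or more, 29 from 10 to under 100 CPM and 13 under 10 CPM. Per kilobase of exon the order changed: TYRP1 was at 628 CPM per kb, PAEP at 276, PAEPP1 at 194, CYP1B1 at 131 and MME at 44.1. The coefficient of variation over the 8 MeWo libraries had a median of 7.11%, from 2.72% for MGMT to 31.7% for LINC01537, against a median of 5.20% over all autosomal genes at 5 CPM or more. By type 33 members were protein coding, 11 long noncoding and 3 pseudogenes.

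MeWo replicates 5 to 8 were then compared with replicates 1 to 4. The rule used the mean over all 8 MeWo libraries, and 43 members also met it with the mean of either set alone. The other 4 (LINC01537, ENSG00000259828, LINC02941 and ACTRT3) met it with replicates 5 to 8 and not with replicates 1 to 4, so their change is not independent of how they were chosen and is given as a description. The labels name no difference between these sets, so the contrast has no named cause. Of the 47 members, 18 passed an adjusted p of 0.05 (limma, Benjamini-Hochberg over 18196 genes tested): 11 were higher in replicates 5 to 8 and 7 lower. Among the 43 there were 16, with 9 higher and 7 lower. Over all genes tested 17.2% passed, 9.00% higher and 8.23% lower. Among genes with a mean of 5 CPM or more in MeWo, the floor the members also had to reach, 24.5% passed. Counts by class of function given below cover 2 to 11 genes each. They stand beside these shares, and no class was tested as a whole. The changes were small. Their median was 0.03 on the log2 scale, against 0.02 over all genes tested. The median size without sign was 0.12, against 0.11 over all genes tested and 0.07 over those at 5 CPM or more in MeWo. LINC01537 was the only member past 1.5-fold (2.13% of the 47), against 3.46% of all genes tested and 0.294% of those at 5 CPM or more. It is among the 4 that met the rule only with replicates 5 to 8. The share of 2.13% is therefore not independent of the choice, and none of the 43 passed 1.5-fold. CPM did not overlap between the sets for 13 members of the 47 that were higher and 3 that were lower in replicates 5 to 8. Over all genes tested the shares were 12.8% and 7.14%, 20.0% together. Among the 10881 genes at 5 CPM or more in MeWo, 1831 were higher without overlap and 1131 lower. The 13 include LINC01537 and ENSG00000259828, from the 4 above.

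The balance of higher and lower calls depended on the scaling of library sizes. With upper-quartile factors 5 members were higher and 12 lower, among the latter 5 that passed only there (PAEPP1, LINC00958, CPNE7, IRX2 and TAFA5, at adjusted p of 0.0101, 0.00637, 0.00371, 0.0271 and 0.021), with total counts alone 11 and 4, and with A101D added to the fit 7 and 7. Across 16 alternatives no member's call turned to the other direction. In each of them 7 of the 18 calls were kept: PAEP, NUDT12, ADAMTS5, LINC01537 and ENSG00000259828 higher, and FAM178B and ENSG00000225106 lower. LINC01537 and ENSG00000259828 are among the 4 named above.

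**Figure D3:**
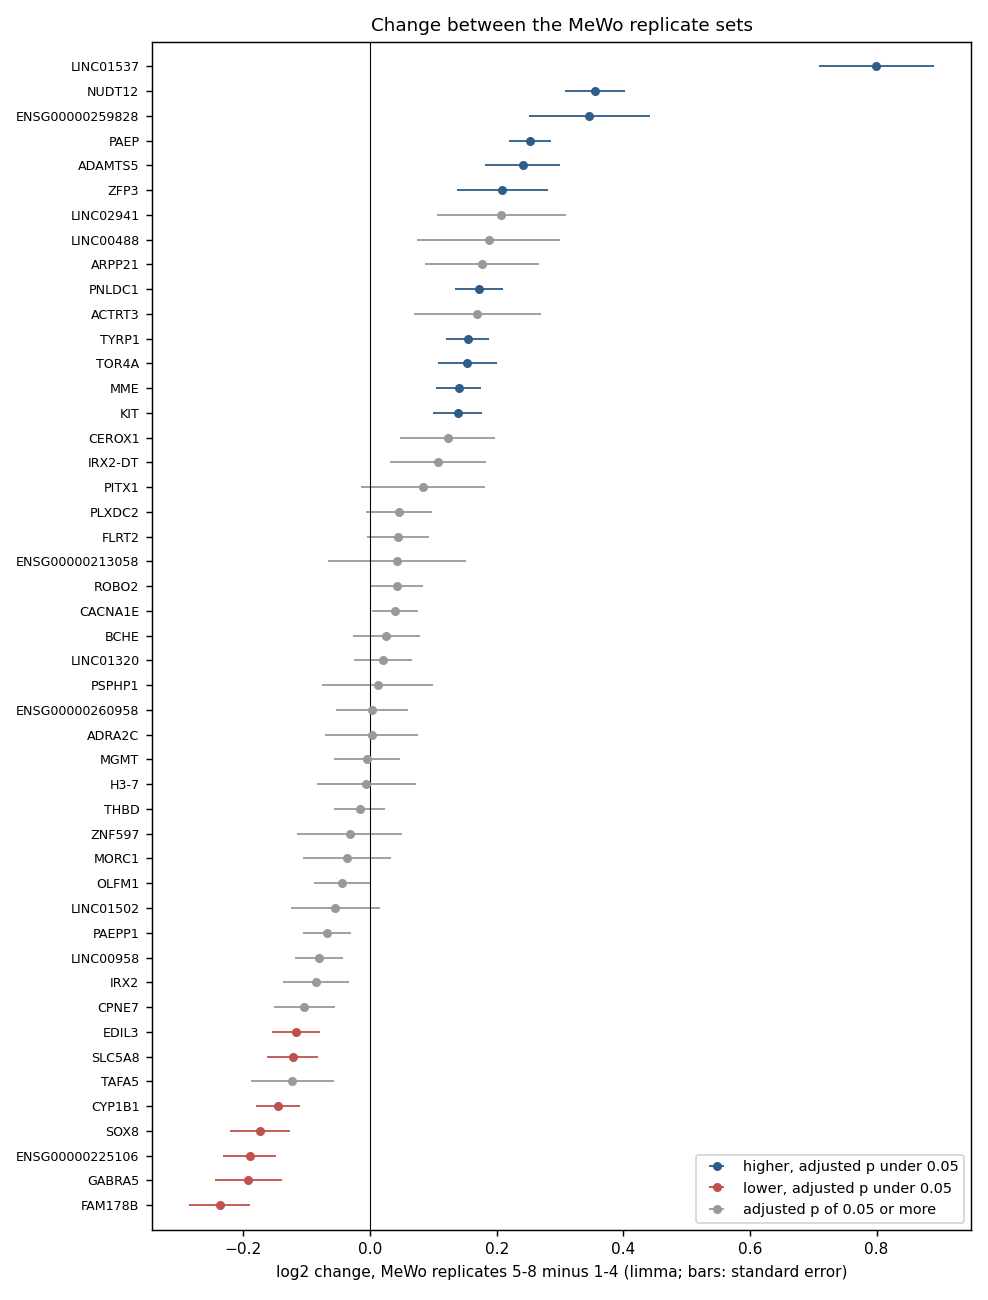
Log2 change of each member between MeWo replicates 5 to 8 and 1 to 4 (x axis, positive when higher in 5 to 8; bars are the standard error of the limma fit). Blue points passed as higher (11), red points as lower (7), and grey points had an adjusted p of 0.05 or more; LINC01537 stands at 0.80 and FAM178B at -0.24.

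Both pigment cell members were higher in MeWo replicates 5 to 8. TYRP1 (chr9:12685439-12710290), which encodes the melanosomal enzyme tyrosinase-related protein 1, stood at 2232, 2288, 2230 and 2067 CPM in replicates 1 to 4 and at 2382, 2648, 2479 and 2485 CPM in replicates 5 to 8. All 4 values of replicates 5 to 8 lay above all 4 of replicates 1 to 4. The change was 0.15 ± 0.03 (log2, standard error), 1.11-fold, with an adjusted p of 0.00152 in limma. In A101D it had 253 counts over 8 libraries, and the MeWo level was 2524-fold that of A101D (95% counting interval 2232 to 2867). Taken by replicate set the ratio was 5742 for replicates 1 to 4 and 1688 for 5 to 8, both outside that interval, which covers counting error only. KIT (chr4:54657918-54740715) was at 77.1, 74.3, 73.7 and 71.0 CPM and then at 82.9, 85.5, 80.3 and 83.4 CPM, again without overlap. Its change was 0.14 ± 0.04 with an adjusted p of 0.0102. TYRP1 and KIT both missed the threshold with upper-quartile factors, at adjusted p = 0.238 and 0.363.

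A list of 27 pigment cell genes held TYRP1 and KIT. Between the MeWo sets 4 of the 27 were higher (TYRP1, KIT, IRF4 and CAPN3), none was lower and 23 did not pass, with a median change of 0.03. The share that passed was 14.8%, against 17.2% of all genes tested and 24.5% of those at 5 CPM or more in MeWo. CAPN3 rose by 0.53, and IRF4, a lineage transcription factor, by 0.58. TYR just missed the rule: at 297 CPM in MeWo and 418 counts in A101D, its A101D level was 0.517% of that in MeWo. OCA2, which encodes a melanosomal membrane protein, and SLC24A5, a melanosomal exchanger, were at 0.592% and 0.760%. The list was mixed, and 6 of its 27 genes were under 2% of MeWo in A101D, among them TRPM1 at 1.97%. PMEL was at 3.40%, GPR143 at 4.83%, MLANA at 13.5% and the lineage factor MITF at 32.8%. SOX10 was at 83.4%. Other genes were higher in A101D, among them ERBB3 at 237%, DCT at 299% and IRF4 at 1862% of the MeWo level.

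Of 4 secreted or cell-surface enzymes and cofactors, 2 were higher in replicates 5 to 8. MME (chr3:155024124-155183729), neprilysin, a membrane peptidase that cleaves small peptides, was at 414, 404, 405 and 377 CPM in replicates 1 to 4 and at 439, 468, 435 and 454 CPM in replicates 5 to 8. The sets did not overlap, and the change was 0.14 ± 0.04 with an adjusted p of 0.00423, which rose to 0.337 with upper-quartile factors and 0.0635 with A101D in the fit. A101D gave MME 4 counts in all, never more than 1 in a library. ADAMTS5 (chr21:26917912-26966513), a secreted protease that cuts aggrecan, was at 13.8, 14.1, 14.5 and 15.4 CPM and then at 16.2, 17.8, 17.1 and 18.2 CPM. It changed by 0.24 ± 0.06 with an adjusted p of 0.00311. Its neighbour on the chromosome, ADAMTS1, lies 72.5 kb away and was at 45.6 CPM in A101D and 133 CPM in MeWo.

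THBD, thrombomodulin, an anticoagulant receptor best known from endothelium, ranged from 89.2 to 102 CPM over the MeWo libraries with a median of 94.5. Its change between the sets was -0.02 ± 0.04 with an adjusted p of 0.832. In A101D, where THBD had 49 counts, 6 endothelial markers summed to 105 to 165 CPM, against 3.20 to 3.64 CPM for MeWo. Only 3 of the 6 (KDR, TEK and VWF) were at 1 CPM or more in A101D, and 2 (KDR and VWF) in MeWo. BCHE, butyrylcholinesterase, a secreted esterase, ranged from 22.5 to 25.7 CPM, and its change was 0.03 ± 0.05.

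Among 7 secreted, adhesion and guidance proteins 1 was higher, 1 lower and 5 did not pass. PAEP (chr9:135561756-135566955), the secreted lipocalin glycodelin, was at 368, 361, 361 and 358 CPM in replicates 1 to 4 and at 442, 448, 443 and 425 CPM in replicates 5 to 8. The gap between the sets was far wider than the spread within either. PAEP changed by 0.25 ± 0.03, 1.19-fold, with an adjusted p of 3.63e-07. EDIL3, an integrin-binding matrix protein, was at 74.7, 75.6, 76.9 and 80.8 CPM and then at 69.3, 73.7, 71.2 and 75.05 CPM, with overlap. It changed by -0.12 ± 0.04 with an adjusted p of 0.0266. This call was lost without replicate 2, 3, 5 or 7, with adjusted p of 0.0555, 0.0742, 0.0602 and 0.0802 in that order.

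ROBO2, a receptor for the guidance cue Slit, had no A101D count and varied little in MeWo. It stood at 41.0, 41.5, 41.1 and 41.6 CPM and then at 42.9, 44.3, 43.0 and 43.1 CPM. These values did not overlap, but the scaled change of 0.04 ± 0.04 had an adjusted p of 0.536. Against a floor of 3 counts over the 8 A101D libraries, ROBO2 was at least 3826-fold higher in MeWo. OLFM1, a secreted olfactomedin protein of neural tissue, was at 52.4 to 59.2 CPM. FLRT2, a membrane protein with roles in adhesion and repulsion, was at up to 36.8 CPM with a median of 32.9. PLXDC2, a plexin-domain membrane protein, was at 20.6 to 23.4 CPM, and TAFA5, a small secreted protein, at 13.2 to 17.0 CPM. None of these 4 passed between the sets with the main scaling.

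The 4 channel, transporter and receptor genes included 2 that were lower and 2 that did not pass. GABRA5 (chr15:26866363-26949207), a GABA-A receptor subunit, was at 30.5, 30.9, 28.6 and 27.7 CPM and then at 26.6, 26.1, 24.1 and 28.1 CPM. Replicate 8 reached into the range of replicates 1 to 4. The change was -0.19 ± 0.05 with an adjusted p of 0.00914, and the call was lost without replicate 1 (adjusted p = 0.0554) or replicate 7 (adjusted p = 0.0599). SLC5A8, a sodium-coupled carrier of short monocarboxylates, was at 52.6, 50.2, 52.2 and 52.7 CPM and then at 49.3, 50.9, 47.5 and 46.98 CPM. It changed by -0.12 ± 0.04 with an adjusted p of 0.0311. That call was lost without replicate 1, 3, 7 or 8, with adjusted p of 0.119 (without 1), 0.092 (without 3), 0.102 (without 7) and 0.147 (without 8).

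CACNA1E, the pore-forming subunit of the R-type calcium channel, was among the steadier abundant members, with 92.6 to 103 CPM over the MeWo libraries. Its change was 0.04 ± 0.04 with an adjusted p of 0.512. ADRA2C, an alpha-2 adrenergic receptor, ranged from 10.3 to 12.7 CPM and had 1 count in A101D. The 2 other ADRA2 genes were under 5 CPM in both lines.

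Of 5 transcription factor genes 1 was higher, 1 lower and 3 did not pass. SOX8 (chr16:981808-986979), a close relative of the lineage factor SOX10, was at 40.6, 43.9, 40.7 and 43.0 CPM and then at 39.6, 35.2, 40.4 and 37.2 CPM. The sets were adjacent without overlap, and the change was -0.17 ± 0.05 with an adjusted p of 0.00863, which was 0.0557 without replicate 6. SOX8 had 8 counts in A101D, where SOX10 itself was at 381 CPM, beside 456 CPM in MeWo. ZFP3, a zinc finger protein, was at 9.42, 9.22, 8.88 and 10.5 CPM and then at 11.4, 12.2, 10.6 and 10.6 CPM. Its change was 0.21 ± 0.07 with an adjusted p of 0.0397. The call was lost in 10 of 16 alternatives, among them leaving out replicate 1, 2, 3, 5 or 6, at adjusted p of 0.079, 0.0789, 0.14, 0.0755 and 0.134 in that order.

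IRX2 and PITX1 are homeobox factors of development. IRX2 ranged from 20.1 to 22.8 CPM in MeWo, at least 1917-fold above the A101D floor, and IRX6, of the same family, was at 14.3 CPM in A101D. PITX1 ranged from 4.90 to 6.51 CPM, with 6 counts in A101D. ZNF597, an imprinted zinc finger gene, ranged from 6.71 to 8.64 CPM with 5 counts in A101D. None of these 3 passed between the sets.

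The 4 intracellular enzymes included 2 that were higher and 1 that was lower. CYP1B1 (chr2:38066973-38109902), a cytochrome P450 that oxidises steroids and aromatic hydrocarbons, was the second most abundant member, at 800, 779, 825 and 872 CPM and then at 711, 762, 736 and 808 CPM. The sets overlapped. Its change was -0.15 ± 0.03 with an adjusted p of 0.00258, which was 0.0538 with total counts alone. CYP1B1 also had the most A101D counts, 582, and its MeWo level was 367-fold that of A101D (338 to 399). CYP1A1, a related enzyme, was higher in A101D, at 40.5 CPM beside 6.14 CPM in MeWo.

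NUDT12 (chr5:103548855-103562793), a peroxisomal NADH pyrophosphatase, was at 26.7, 25.7, 25.002 and 26.2 CPM and then at 31.6, 36.1, 33.6 and 33.8 CPM. It changed by 0.35 ± 0.05, 1.28-fold, with an adjusted p of 7.27e-07. PNLDC1, the exonuclease that trims the 3′ ends of piRNA precursors in germ cells, was at 61.1, 58.6, 59.5 and 60.9 CPM and then at 69.2, 69.2, 70.3 and 67.0 CPM. The later set stood apart from the earlier. Its change was 0.17 ± 0.04 with an adjusted p of 0.00124, and 0.126 with upper-quartile factors. MGMT, which repairs O6-alkylguanine in DNA, was the steadiest member, at 20.6 to 22.1 CPM with a median of 20.8. It had a single count in A101D, and the change between the sets was -0.00497 ± 0.05 with an adjusted p of 0.967.

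**Figure D4:**
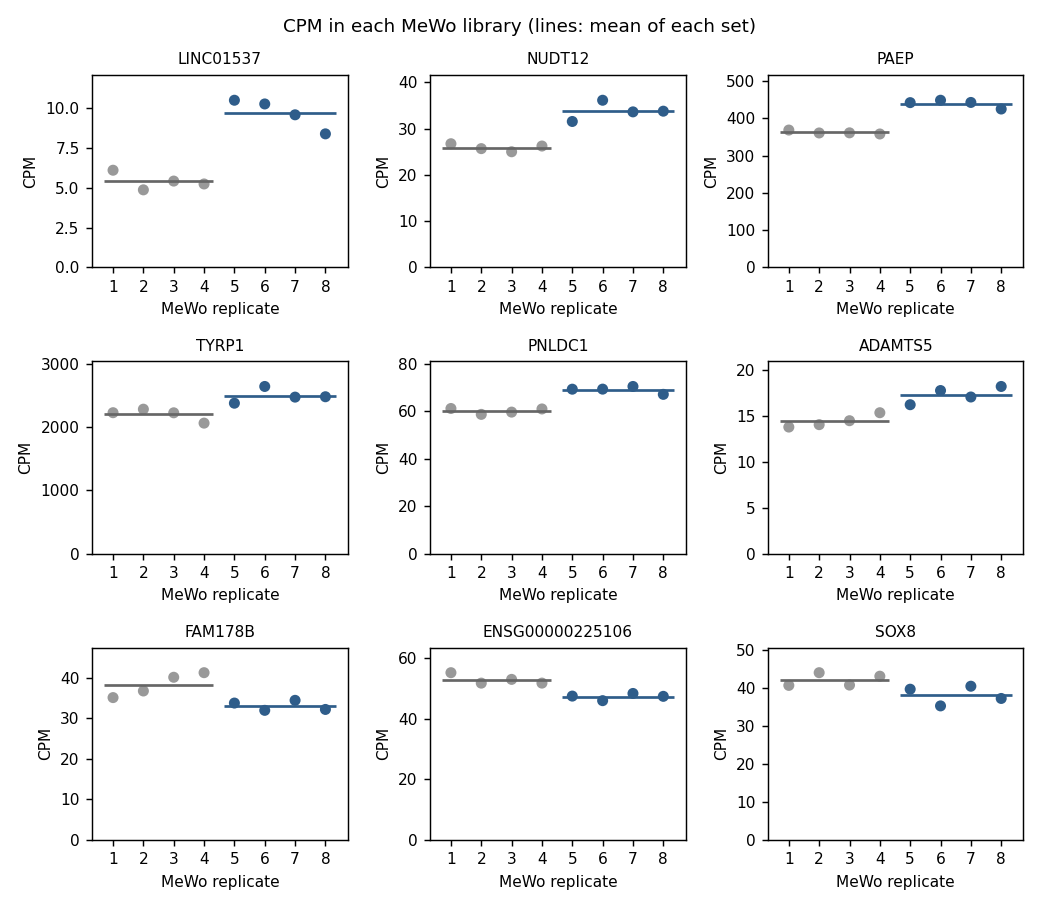
CPM (y axis, from 0) of 9 members in each MeWo library (x axis, replicate number), grey for replicates 1 to 4 and blue for 5 to 8, with a line at each set's mean. LINC01537 moves from 5.41 to 9.69 CPM, PAEP from 362 to 440 CPM and NUDT12 from 25.9 to 33.8 CPM. FAM178B, ENSG00000225106 and SOX8 are lower in replicates 5 to 8.

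Of 7 other genes of protein-coding type in GENCODE, which counts IRX2-DT there and H3-7 among the noncoding, 1 was higher, 1 lower and 5 did not pass. FAM178B was at 35.0, 36.7, 40.1 and 41.2 CPM and then at 33.7, 31.9, 34.4 and 32.1 CPM, without overlap. Its change was -0.24 ± 0.05 with an adjusted p of 0.000424. TOR4A, a torsin-family ATPase, was at 33.7, 35.2, 33.0 and 34.3 CPM and then at 39.5, 36.5, 40.8 and 37.9 CPM. It changed by 0.15 ± 0.05 with an adjusted p of 0.0179, which was 0.0697 without replicate 3 and 0.092 without replicate 7. CPNE7, a calcium-dependent phospholipid-binding protein, ranged from 52.0 to 66.8 CPM and did not pass.

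MORC1, which silences transposons in male germ cells, ranged from 11.6 to 14.8 CPM with no A101D count, at least 1158-fold above the A101D floor, while MORC3 was at 89.1 CPM in A101D and 68.5 CPM in MeWo. ACTRT3, an actin-related protein of sperm, ranged from 4.50 to 6.07 CPM, and ARPP21, a phosphoprotein of striatal neurons, ranged from 5.21 to 6.70 CPM. ARPP21 was higher without overlap in replicates 5 to 8, but its adjusted p was 0.187. The list of germ cell and cancer-testis symbols held none of the 47 members, and neither did the list of immune recognition and interferon symbols. Leaving out MAGE symbols removed no gene, since the 3 genes left out by name were MTAP, CDKN2A and CDKN2B. The germ cell list was written without MORC1, ACTRT3 and PNLDC1. Its lack of members therefore does not show that germ cell genes were absent from the group.

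Of 11 long noncoding genes 2 were higher, 1 lower and 8 did not pass. LINC01537 (chr11:72570660-72573229) was at 6.11, 4.87, 5.42 and 5.24 CPM and then at 10.5, 10.3, 9.59 and 8.39 CPM. The lowest of replicates 5 to 8 was above the highest of replicates 1 to 4, and the change was 0.80 ± 0.09, 1.74-fold. ENSG00000259828 was at 6.30, 5.06, 5.92 and 4.73 CPM and then at 7.05, 6.60, 7.02 and 7.72 CPM, a change of 0.35 ± 0.10. Neither change is given a p, since with replicates 1 to 4 alone their A101D levels would be 0.684% and 0.510% of MeWo. Both genes sat at the edge of the rule, since their A101D levels were 0.490% and 0.445% of MeWo, and 1 or both dropped out when single libraries were left out. ENSG00000225106 (chr20:61738219-61755056) was at 55.2, 51.8, 53.0 and 51.8 CPM and then at 47.5, 46.0, 48.3 and 47.4 CPM, a change of -0.19 ± 0.04 with an adjusted p of 0.00105. It lies antisense to CDH4, and without a stated strand setting reads of the 2 genes cannot be told apart.

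LINC00958, a noncoding RNA described in several cancers, ranged from 66.3 to 73.4 CPM with 26 counts in A101D. LINC00488 ranged from 7.47 to 11.6 CPM, and its change of 0.19 ± 0.11 passed only when replicate 4 was left out (0.31, adjusted p = 0.016). H3-7, ENSG00000260958 and LINC01320 had changes of -0.01, 0.00 and 0.02. Of the 47 members, 20 overlap a gene on the opposite strand and 12 a gene on the same strand, so their counts could hold reads of another gene.

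Several members lay next to each other. On chromosome 9, PAEP, LINC01502 and the PAEP pseudogene PAEPP1 (chr9:135588002-135591975) follow one another with gaps of 7.98 and 0.89 kb, and OLFM1 lies 441 kb away. LINC01502 was at 45.8 to 57.1 CPM in MeWo with no count in A101D. PAEPP1 was at 104, 95.1, 104 and 111 CPM and then at 98.2, 102, 100.0 and 102 CPM, and its change of -0.07 ± 0.04 did not pass, beside 0.25 ± 0.03 for PAEP. The difference between these changes was not tested, and reads of such near copies could have been split between them. MRPS2, which lies 57.1 kb from PAEP, was at 49.4 CPM in A101D and 103 CPM in MeWo.

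Closer pairs were SOX8 and CEROX1, 0.212 kb apart, and IRX2 and IRX2-DT, 0.469 kb apart, while MORC1 and LINC00488 were 60.0 kb apart. CEROX1, a noncoding RNA linked to respiratory complex I, ranged from 7.97 to 9.74 CPM, and IRX2-DT from 7.50 to 9.35 CPM. In all 10 members had another member within 1 Mb, and the 47 were spread over 18 chromosomes. For 27 members a gene outside the group within 250 kb reached 5 CPM in A101D, and for 20 there was none. CPNE7 had 12 such neighbours, the nearest being RPL13 at 8.94 kb with 481 CPM in A101D. PNLDC1 had 6, with MRPL18 1.81 kb away. MME, KIT, THBD, NUDT12 and MGMT had none. No member lay within 5 Mb of MTAP. That window holds the 3 genes left out by name, which met both limits: MTAP, CDKN2A and CDKN2B. They were at 76.2, 9.21 and 16.1 CPM in MeWo and at 0.0218, 0 and 0 CPM in A101D.

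Paralogues of the named members were often present in A101D. In 13 of 16 families looked at, another member reached 5 CPM there. ROBO1 was at 126 CPM in both lines, FLRT3 at 65.6 CPM in A101D and 27.7 CPM in MeWo, and CPNE3 at 117 CPM in A101D and 138 CPM in MeWo. Single paralogues ran the opposite way: ADAMTS4 was at 103 CPM in A101D and 0.372 CPM in MeWo, GABRA3 at 17.3 and 0.126 CPM, and TAFA3 at 20.7 and 0.380 CPM. In the families of ADRA2C, PLXDC2 and OLFM1 no other gene reached 5 CPM in A101D. These families were picked for the named members and carry no test.

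The few remaining A101D counts were looked at by replicate set for the 4 members with a mean of 10 or more counts per A101D library, a comparison chosen after the values were seen. TYRP1 was at 0.334, 0.629, 0.242 and 0.322 CPM in A101D replicates 1 to 4 and at 1.84, 1.68, 1.33 and 1.11 CPM in replicates 5 to 8. The counts were 7 to 21 and then 39 to 61, so the sets did not overlap. The ratio was 3.86 (95% counting interval 2.83 to 5.34), with a two-sided exact permutation p of 0.0286, the smallest that 4 against 4 samples can give, and 0.114 after adjustment over the 4 members. The ratio ran from 3.51 to 4.88 when single libraries were left out. CYP1B1 went from 2.33 ± 0.47 to 1.995 ± 0.36 CPM (SD, n = 4 each) with an exact permutation p of 0.343. CACNA1E went from 34 counts in all to 60 (a CPM ratio of 1.76, counting interval 1.14 to 2.77), and EDIL3 from 38 to 57, with exact permutation p of 0.114 and 0.0857. None of the 4 passed after adjustment, and this design could not bring the adjusted p of a single member among 4 under 0.114. All these values use column totals. Trimmed-mean factors, computed over both lines, were 0.942 to 0.958 for the earlier A101D set and 1.05 to 1.08 for the later. Dividing by these factors would lower each ratio, so the CYP1B1 decrease would be larger and the other increases smaller. The tests and intervals were not repeated on scaled values.

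**Figure D5:**
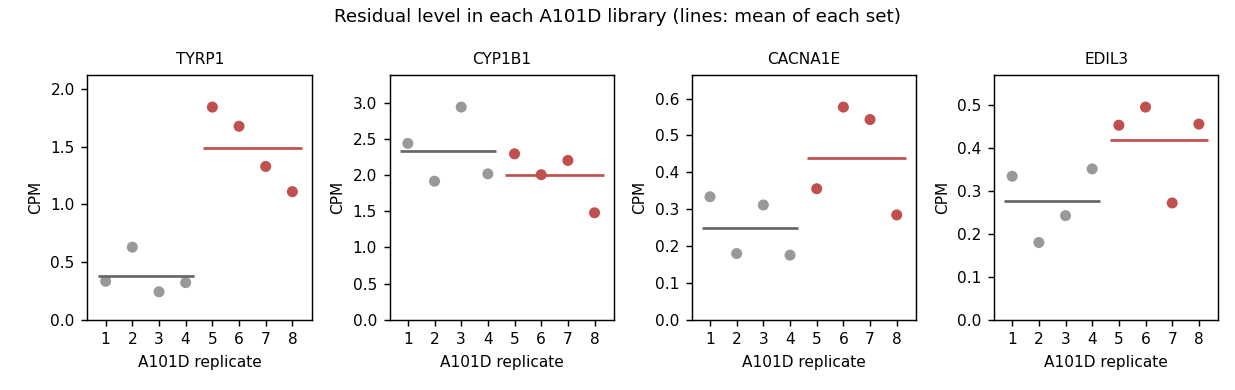
CPM (y axis, from 0, with a scale of its own in each panel) of TYRP1, CYP1B1, CACNA1E and EDIL3 in each A101D library (x axis, replicate number), grey for replicates 1 to 4 and red for 5 to 8, with a line at each set's mean. TYRP1 is at 0.242 to 0.629 CPM in replicates 1 to 4 and 1.11 to 1.84 CPM in replicates 5 to 8.

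Near the limits of the rule the genes formed a continuum. Just inside the A101D limit were LINC01537, EDIL3 at 0.465% and ENSG00000259828, and just outside were TYR, ATP10A at 0.536% and ZDHHC11B at 0.543%. Just inside the MeWo limit were ACTRT3 at 5.08 CPM, LINC02941 at 5.19 CPM and PITX1 at 5.90 CPM, and just outside were ADGRB3 at 4.90 CPM with no A101D count, C3orf85 at 4.79 CPM and RPL38P3 at 3.96 CPM. The pseudogenes PSPHP1, at 6.20 to 7.64 CPM, and ENSG00000213058, at 7.29 to 9.98 CPM inside RASAL2, did not pass between the MeWo sets, and their counts are uncertain because of near copies or the host gene.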

How the data were processed

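Total RNA of 8 A101D and 8 MeWo samples was measured by RNA sequencing. Per the submitters' processing notes, Trimmomatic 0.39-1, STAR 2.7.1a and featureCounts 2.0.0 were used with GRCh38. The deposited tables hold whole-number counts per gene over exons, per the file headers, with no normalization by the authors. Each cell joins an Ensembl identifier and a count, which were separated. Not given in the sources used here are the annotation release and whether strand was used. Symbols came from a gene name table and positions from GENCODE v29.

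Members and gene lists were chosen with earlier results of these data known. The replicate split follows the same earlier work. MeWo replicates 5 to 8 and 1 to 4 were compared in limma 3.58.1 (R 4.3.3, voom weights, robust empirical Bayes) on library sizes scaled by trimmed means (30% on ratios, 5% on means). Genes needed 0.298 CPM in 4 MeWo libraries and 15 counts in all, and p-values were adjusted by Benjamini-Hochberg over all genes tested. The procedure was tested on simulated data. CPM in the text use column totals. A101D values used exact permutation tests (scipy 1.17.1). Counting intervals are exact (95%) and, like the floor of 3 counts, cover counting error only. Named members are the 10 most abundant, those called without overlap, up to 6 per list, and those next to a limit or in a cluster. The other members were added for completeness, after their values were seen. Alternatives covered scaling, filters, thresholds, the fit and each library. A result on a single further gene is not reported here.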

Additional observations from a re-analysis of the deposited data

Results flagged for a closer look

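TAFA5 in MeWo replicate 6 was at 13.2 CPM, lower than the other 7 MeWo libraries by an unusual gap: the next lowest was at 15.2 CPM and the highest at 17.0 CPM, so the gap took 0.530 of the range, just past the 95% limit for 8 samples. This was the only such library among 51 groups of 8 values checked, where chance alone gives about 2.55.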

How the results depend on the processing

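The rule gave 47 genes with CPM on scaled library sizes, 55 at a floor of 3 CPM, 34 at 10 CPM, 63 at a limit of 1%, 51 with medians, and 30 at 0.25%. Leaving out 1 library gave 46 to 49 genes, and 45 or more of the 47 were kept each time. With the MeWo mean of replicates 1 to 4 alone it gave 43 genes and with 5 to 8 alone 48, a choice made after seeing the data. Between the MeWo sets 18 members passed; without the low-count filter, which raised the genes tested from 18196 to 42319, 11 passed. Leaving out 1 MeWo library gave 14 to 19 members and 2209 to 3731 of all genes, beside 3135, and at a threshold of 0.01 there were 1721. Other scalings, fits and filters gave 14 to 18 members. Of all calls under the alternatives none reversed, 44 lost the threshold and 6 gained it, and 15 members changed sign in some alternative, none of them called. Without the filter TYRP1 (adjusted p = 0.138), MME (0.146), CYP1B1 (0.181), TOR4A (0.09), EDIL3, SLC5A8 and ZFP3 lost their calls; with A101D in the fit MME, KIT (0.0711), TOR4A (0.106) and ZFP3 did; with upper-quartile factors TYRP1, MME, KIT, PNLDC1, TOR4A (0.299) and ZFP3 did. For the lost calls of single members the cause was not tested. No paired analysis was possible because the sets compared within MeWo carry different replicate numbers (1 to 4 and 5 to 8), and the difference between lines was not tested. Levels of a few counts per A101D library limit what can be said of any single gene there.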

Other observations

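On chromosomes X and Y, which the rule left out, 13 more genes met both limits. In A101D the summed level of the members was 4.70 to 5.15 CPM in replicates 1 to 4 and 5.83 to 7.43 CPM in replicates 5 to 8, and these ranges do not overlap. TYRP1 went from 52 counts to 201 between those sets. Without TYRP1 the ranges of the summed level overlap, and the part of other single members was not tested.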
